A study of Rattus norvegicus with 20 samples.

Results

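MicroRNAs (miRNAs) of the imprinted Dlk1-Dio3 region were followed in rat kidney after aristolochic acid I (AAI), a plant acid that damages the renal tubule and forms DNA adducts. They were rno-miR-341, rno-miR-300-3p, rno-miR-487b-3p, rno-miR-382-5p and rno-miR-409a-3p (the species prefix is left out from here on), 5 of the 719 rat miRNAs on the array. They were picked out by name: miR-341 for its level at AAI day 4 and day 6 against vehicle, and the other 4 as its neighbours, so their differences from vehicle are given as a description without a test. The 20 arrays each held RNA of 1 kidney from a male Wistar rat of 80 to 100 g, in 4 groups of 5 kidneys. The treated groups, 3 in all, received AAI at 40 mg/kg intraperitoneally and were collected on day 2, day 4 or day 6. The control group received the vehicle, polyethylene glycol and water in equal parts, and was collected on day 6 only. There was therefore no vehicle group at day 2 or day 4, and the number of injections is not stated. Whether each kidney came from a different rat is not stated either, so the errors and p-values measure the spread between these samples.

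Imprinting means that a gene is expressed from the chromosome of 1 parent only. In the Dlk1-Dio3 region the protein-coding genes, among them Dlk1 and Dio3, are expressed from the paternal chromosome in mouse, while long non-coding RNAs such as Meg3 and the many miRNAs embedded downstream of it come from the maternal chromosome. The miRNAs of the region are abundant in the embryo, placenta and brain, and are usually low in adult epithelial tissue. A mature miRNA finds its target messenger RNAs mainly through bases 2 to 8 from its 5′ end, the seed, so miRNAs that differ in the seed are predicted to have different targets even where they are transcribed from one locus.

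The mature sequences are shown because the seed and the 3′ end, where the array probes bind, both bear on what was measured. All 5 matched an entry in RefSeq (rat build GRCr8), from which the sequences are taken, written 5′ to 3′ with the seed in capitals:
miR-341: uCGGUCGAucggucggucggu
miR-300-3p: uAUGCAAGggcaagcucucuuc
miR-487b-3p: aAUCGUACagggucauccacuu
miR-382-5p: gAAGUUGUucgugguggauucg
miR-409a-3p: aAUGUUGCucggugaacccc

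The 5 seeds all differed from each other, and none was shared with another mature rat miRNA of the table (0 for each). In GRCr8 all 5 lie on the plus strand of chromosome 6, with miR-341 at chr6:134347871-134347891, miR-300-3p at chr6:134559968-134559989, miR-487b-3p at chr6:134562939-134562960, miR-382-5p at chr6:134569956-134569977 and miR-409a-3p at chr6:134579231-134579250. By the rn4 coordinates of the array probes, miR-341 stood apart from the other 4. The start of the miR-300-3p probe target lay 201.71 kb, and that of miR-409a-3p 220.98 kb, from that of miR-341, so the 4 neighbours were far closer to each other than to miR-341.

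Base composition also set miR-341 apart from the 4 neighbours, with 66.7% G and C against 45.5% to 55.0%. The median was 47.8% over the 232 tested miRNAs with a RefSeq sequence. Of the other tested miRNAs of the region, miR-770-3p had 70.6% and miR-370-3p 68.2%, both above miR-341. MiR-667-3p, miR-3544, miR-134-5p and miR-494-3p had 63.6%, 60.9%, 59.1% and 43.5%. MiR-341 is built largely from the unit CGGU, in capitals here:
miR-341: uCGGUcgauCGGUCGGUCGGU

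The unit occurred 4 times in miR-341. It occurred at least once in 38 of 692 distinct mature rat sequences (5.49%), and no other sequence held it more than once. Both array probes for miR-341, of 14 and 15 bases, pair with its 3′ end (bases 8 to 21 and 7 to 21) and so cover 3 of the 4 units. No other mature rat miRNA in the table held the whole target of a probe for any of the 5, and the longest run shared between a miR-341 target and another miRNA was 6 bases (miR-3578). The probes for miR-300-3p were the exception in closeness. The target of the 18-base probe shared a run of 14 bases with miR-381-3p, a miRNA of the same region, and that of the 17-base probe 13. The run of 14 is shown in capitals:
miR-300-3p: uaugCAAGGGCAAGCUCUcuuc
miR-381-3p: uauaCAAGGGCAAGCUCU

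The scanner intensity of each miRNA was summed over its probes and divided by the 75th percentile of its array, and levels are log2 values of that ratio, so that 1 unit is a doubling. Levels of different miRNAs are not compared, because their probes differ. Within 500 kb of the 5 on chromosome 6 the array carried 100 miRNAs, of which 79 were detected on no array and 21 on at least 1. Detection in every kidney of some group was required for the fit, which kept 262 of the 719, and 11 of the 100. Those 11 were all 5 named miRNAs and 6 others of the region, miR-770-3p, miR-3544, miR-370-3p, miR-494-3p, miR-667-3p and miR-134-5p. The 6 others were not used in choosing the 5, and were tested in all comparisons.

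Arrays detected 250 to 328 miRNAs each, and AAI day 4 array 2 stood apart with the 328. Levels correlated at 0.912 to 0.996 between arrays of a group, across miRNAs, which are not independent replicates. All 5 kidney tubule markers (miR-192-5p, miR-194-5p, miR-204-5p, miR-196a-5p and miR-30a-5p) were detected on all 20 arrays. The arrays sat on 3 slides of 8 positions in 2 rows, and groups were unevenly spread over them. Slide 3 held 4 vehicle arrays, all in position row 1. On slide 2, row 2 held vehicle array 5 and AAI day 2 arrays 1 to 3, while row 1 held AAI day 2 arrays 4 and 5 and AAI day 4 arrays 1 and 2. On slide 1, row 2 held AAI day 4 arrays 3 to 5 and AAI day 6 array 1, and row 1 held AAI day 6 arrays 2 to 5. The level of miR-341 followed this layout, as described below its values by group.

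MiR-341, a miRNA annotated in mouse and rat, was detected on all 20 arrays. In vehicle kidneys its log2 level was −3.45, −3.48, −3.37, −3.57 and −3.07 (intensities of 28.5 to 43.8). At AAI day 2 it was −2.98, −2.78, −3.20, −1.92 and −1.87, so that 3 kidneys lay near the vehicle values and 2 lay more than a doubling above all of them. At AAI day 4 the 5 kidneys lay close together at −1.86, −2.02, −2.08, −1.96 and −2.05. At AAI day 6 they were −2.48, −1.66, −1.84, −1.88 and −2.35 (intensities of 95.9 to 148). All 5 kidneys of day 4, and all 5 of day 6, were above the highest vehicle kidney, while day 2 overlapped vehicle, with 4 of 5 above it. Over all 262 miRNAs, 1.91% had day 2 wholly above vehicle, 3.05% had day 4 and 4.2% had day 6 wholly above it, which is given as background only, since these comparisons chose miR-341.

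As group means, miR-341 went from −3.39 ± 0.19 (SD, n = 5) in vehicle to −2.55 ± 0.62 at day 2, −1.99 ± 0.09 at day 4 and −2.04 ± 0.35 at day 6. Against vehicle the log2 difference was 0.83 ± 0.22 (SE) at day 2, 1.40 ± 0.22 at day 4 and 1.35 ± 0.22 at day 6. These are 1.78-fold (95% interval 1.29 to 2.47), 2.63-fold (1.90 to 3.64) and 2.54-fold (1.84 to 3.53). In order of level, vehicle was lowest and day 2 next. Days 4 and 6 were level with each other, at a difference of −0.05 ± 0.22, and their order cannot be told from the spread. Day 4 exceeded day 2 by 0.56 ± 0.22 and day 6 exceeded it by 0.51 ± 0.22, but both overlapped it.

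**Figure D1:**
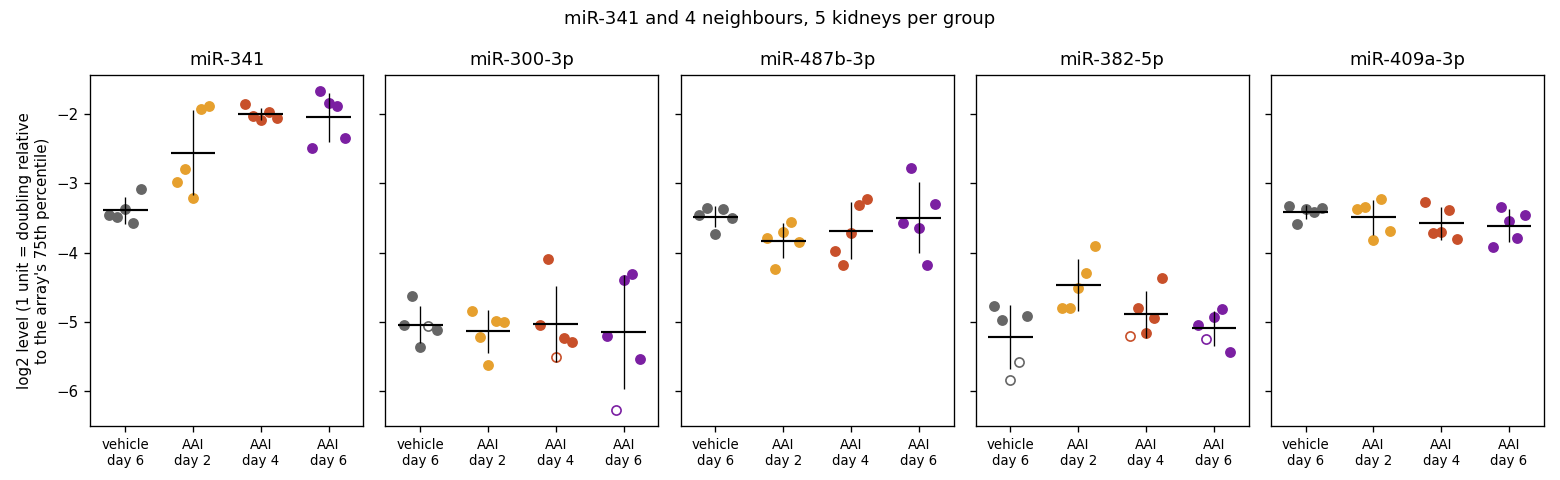
Log2 levels of miR-341 and 4 neighbours (1 panel each) on each of the 20 arrays by group, with horizontal bars at the mean and vertical bars of 1 SD (n = 5). Filled points were detected and open points were not. MiR-341 is above every vehicle array on all arrays of AAI day 4 and day 6 and falls into 2 levels at day 2, while the neighbours overlap vehicle on all 3 days.

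Both miR-341 probes gave similar differences, which are a description, since those at days 4 and 6 chose miR-341. The target of the 14-base probe (bases 8 to 21) lies within that of the 15-base probe (bases 7 to 21). Both were read on the same arrays, so their likeness adds no separate evidence. The 14-base probe differed from vehicle by 0.85, 1.43 and 1.40 at days 2, 4 and 6, and the 15-base probe by 0.83, 1.38 and 1.31. Each probe had 10 spots per array. The median coefficient of variation between spots of an array was 7.38% for the shorter and 4.91% for the longer probe. In the neighbours it ran from 12.5% (longer miR-487b-3p probe) to 40.3% (shorter miR-300-3p probe). The shorter probes of miR-300-3p and miR-382-5p were at the floor for low values on 2 arrays each. At day 6 the probes of miR-300-3p differed from vehicle by 0.22 and −0.09, and those of miR-382-5p by 0.35 and −0.03. For these 2 miRNAs a lack of change is not shown.

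The day 2 kidneys divided by array position. Arrays 1 to 3, in row 2 of slide 2, had a mean of −2.99, and the vehicle array in the same row had −3.07. Arrays 4 and 5, in row 1 of the same slide, had a mean of −1.90, and the 2 AAI day 4 arrays in that row had −1.94. The difference between rows within day 2 was 1.09, the largest upward one of all 262 miRNAs, whose median was 0.03. On slide 2 all 4 arrays of row 1 were above all 4 of row 2, although both rows held AAI day 2 kidneys, and 8 other miRNAs did the same (9 of 262, 3.44%). Another 4 (1.53%) were lower in row 1 throughout. The plot of miR-341 by slide and position row shows this division.

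**Figure D2:**
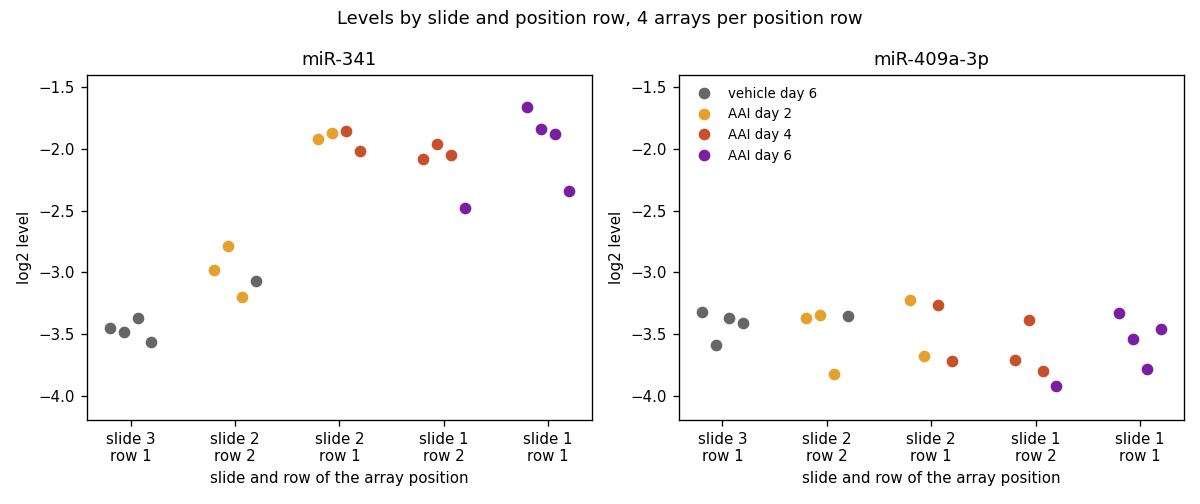
Log2 levels of miR-341 (left) and, for comparison, miR-409a-3p (right) in the 5 combinations of slide and position row, with 1 point per array, 4 arrays per combination, coloured by group. For miR-341 the AAI day 2 arrays lie with vehicle in row 2 of slide 2 and with AAI day 4 in row 1 of that slide. In miR-409a-3p the rows of slide 2 overlap.

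Compared only within one row of one slide, miR-341 was not higher by more than 0.08 in the later or treated group. Day 2 exceeded vehicle by 0.08 (3 arrays against 1) in row 2 of slide 2, and day 4 was below day 2 by a log2 difference of −0.04 (2 against 2) in row 1. In row 2 of slide 1, day 6 differed from day 4 by −0.45 (1 against 3). With slide and row together as a block, a setting chosen after seeing the data, the differences from vehicle were 0.08 ± 0.21, 0.04 ± 0.27 and −0.41 ± 0.34 (SE) at days 2, 4 and 6. No row of a slide held both vehicle and day 4 or day 6, so the last 2 values rest on chains through 1 vehicle array and, for day 6, 1 day 6 array. With slide alone as a block the differences were 0.52 ± 0.40, 1.14 ± 0.45 and 1.12 ± 0.52, and with row alone 0.99 ± 0.21, 1.55 ± 0.21 and 1.35 ± 0.20. For miR-341 the group and the array position cannot be told apart at days 4 and 6.

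**Figure D3:**
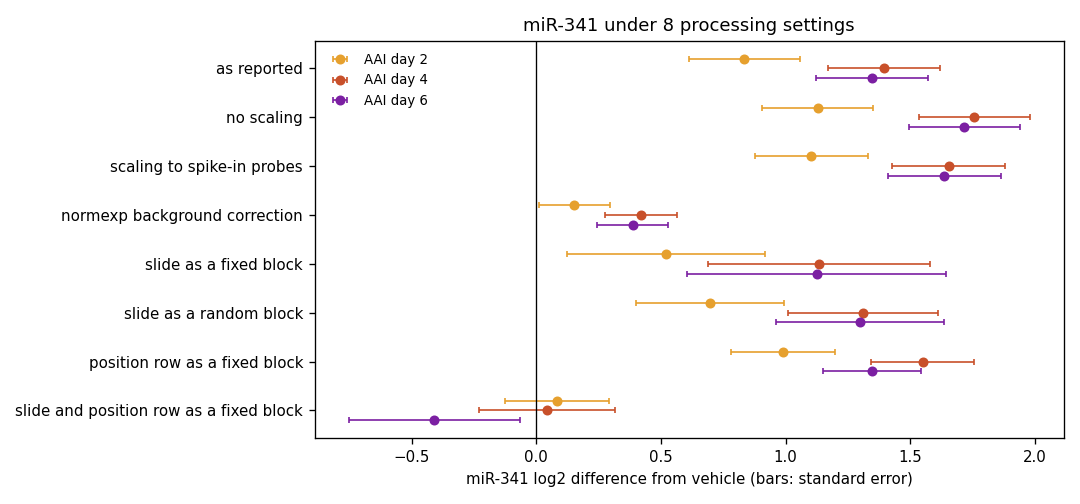
Log2 difference of miR-341 from vehicle at AAI days 2, 4 and 6 under 8 processing settings, with bars of 1 standard error. The differences are all above 0 except that at day 6 with slide and position row as a block, and they are smallest with normexp background correction and with slide and position row together.

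A background correction that adds an offset of 50 intensity units also reduced the differences, to 0.15, 0.42 and 0.39. In vehicle miR-341 had 28.5 to 43.8 units summed over its 2 probes, and 11.3 to 26.5 on a single probe, all below the offset. Summed levels of the marker lists also differed over the same days. The 5 kidney tubule miRNAs summed to 21.7 to 22.8 in vehicle, 16.8 to 23.7 at day 4 and 16.9 to 20.2 at day 6. The 2 endothelial miRNAs summed to 8.94 to 9.15, 7.10 to 9.26 and 6.98 to 8.78. Both lists lay below vehicle at day 6 on this scale. The sums of all lists are relative to the 75th percentile of each array. Its group mean was 367 in vehicle and 480 at day 6, so a fall on this scale need not be a fall in intensity. The summed level of the 3 erythrocyte miRNAs on the array was 0.408 to 1.35 in vehicle, 0.306 to 0.673 at day 4 and 0.0555 to 0.202 at day 6. That of the 6 leukocyte miRNAs was 4.02 to 4.23 in vehicle, 2.78 to 3.72 at day 4 and 2.69 to 3.53 at day 6. The 5 stromal and smooth muscle miRNAs summed to 8.36 to 9.61 in vehicle and 7.27 to 9.03 at day 6. Of the erythrocyte list, miR-144-5p was detected on 0 of 20 arrays, miR-144-3p on 8 and miR-451-5p on 20. A list of brain, muscle, liver and pancreas miRNAs was mixed too. In it miR-1-3p was detected on 0 arrays, miR-124-3p and miR-133a-3p on 3 each, miR-122-5p on 4 and miR-206-3p on 5. MiR-9a-5p and miR-375-3p of that list were detected on 20. The part of these cell types in the result was not tested. In RNA of whole kidney a change in the number of cells of a type cannot be told apart from a change in RNA per cell.

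Each of the 4 neighbours overlapped vehicle on all 3 days, as did most of the 262 miRNAs. Of the 262, 1.91% lay wholly above vehicle and 2.29% wholly below it at day 2. The shares were 3.05% and 3.82% at day 4, and 4.2% and 19.1% at day 6. Overlap alone therefore does not set the neighbours apart from the other miRNAs. MiR-409a-3p and miR-487b-3p were detected on all 20 arrays. MiR-300-3p was detected on 4 vehicle, 5 day 2, 4 day 4 and 4 day 6 arrays, and miR-382-5p on 3, 5, 4 and 4.

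MiR-409a-3p had the tightest values of the 5. Its log2 level was −3.33, −3.59, −3.37, −3.41 and −3.35 in vehicle. At day 2 it was −3.37, −3.35, −3.82, −3.22 and −3.68, at day 4 −3.27, −3.72, −3.71, −3.39 and −3.80, and at day 6 −3.92, −3.33, −3.54, −3.78 and −3.46. The differences from vehicle were −0.08, −0.17 and −0.20 at days 2, 4 and 6, each ± 0.13 (SE). The 95% interval at day 6 ran from −0.48 to 0.09.

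MiR-487b-3p was −3.45, −3.36, −3.73, −3.37 and −3.50 in vehicle, and spread more widely under AAI. It was −3.79, −4.23, −3.70, −3.55 and −3.85 at day 2, where 3 kidneys lay below the lowest vehicle kidney. At day 4 it was −3.97, −4.18, −3.71, −3.31 and −3.22, and at day 6 −3.57, −2.78, −3.65, −4.18 and −3.29, in both cases with kidneys above and below the vehicle range. The differences from vehicle were −0.34, −0.20 and −0.01, each ± 0.22 (SE).

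MiR-300-3p was −5.04, −4.62, −5.37, −5.06 and −5.12 in vehicle and −4.84, −5.22, −5.63, −4.99 and −5.00 at day 2. At day 4 it was −5.04, −4.09, −5.50, −5.23 and −5.29, with array 2 alone above vehicle. At day 6 it was −5.20, −6.28, −4.40, −4.31 and −5.53, with arrays 3 and 4 above vehicle and the undetected array 2 lowest. The differences from vehicle were −0.09, 0.01 and −0.10, each ± 0.32 (SE). The 3 highest of the 20 values, on AAI day 4 array 2 and AAI day 6 arrays 4 and 3, fell on the only 3 arrays on which miR-381-3p, which shares the 14-base run shown above, was detected. Any part of miR-381-3p in the miR-300-3p signal was not tested.

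MiR-382-5p was the one neighbour with a higher mean at day 2, but not with normexp background correction (a log2 difference of −0.08). It was −4.77, −4.97, −5.83, −5.58 and −4.91 in vehicle, where the 2 lowest were not detected. At day 2 it was −4.80, −4.80, −4.51, −4.29 and −3.91, with 3 of 5 above the highest vehicle kidney. It was −5.20, −4.79, −5.17, −4.95 and −4.36 at day 4 and −5.04, −5.24, −4.92, −4.81 and −5.44 at day 6, with all of day 6 inside the vehicle range. The differences from vehicle were 0.75, 0.32 and 0.12, each ± 0.22 (SE). Within row 2 of slide 2 the day 2 difference was 0.21 (3 arrays against 1). The day 2 arrays 4 and 5 in row 1 were again the 2 highest.

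Between AAI days, miR-409a-3p and miR-487b-3p, which were detected on all arrays, were tested. Neither was called in limma at an adjusted p under 0.05, with Benjamini-Hochberg adjustment over the 262 miRNAs, in any of the 3 comparisons. The background of calls was 0% for day 4 against day 2, 11.1% for day 6 against day 2 and 0.763% for day 6 against day 4. Their smallest limma adjusted p was 0.371, for miR-487b-3p from day 2 to day 6 (0.33 ± 0.22). MiR-300-3p and miR-382-5p entered the fit only through day 2, the one group with all 5 arrays detected, which for miR-382-5p is also its highest group. Their differences from day 2 are therefore a description without a test. For miR-300-3p they were 0.10 ± 0.32 (SE) at day 4 and −0.01 ± 0.32 at day 6, and for miR-382-5p −0.43 ± 0.22 and −0.63 ± 0.22.

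The distance between miR-341 and its neighbours was also followed per array, as miR-341 minus the mean log2 level of the 4, relative to the vehicle mean. It was 0.78 ± 0.48 (SD, n = 5) at day 2, 1.40 ± 0.17 at day 4 and 1.40 ± 0.31 at day 6. Vehicle arrays ranged from −0.24 to 0.31, day 2 from 0.32 to 1.34, day 4 from 1.22 to 1.62 and day 6 from 1.05 to 1.85. All 3 days lay above vehicle on this measure, day 2 by a narrow gap, but it holds the same miR-341 values that led to its choice and so adds no separate evidence. It also keeps the step by array position, since no neighbour had the 2 rows of slide 2 apart.

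The 6 other region miRNAs lie before miR-341 (miR-770-3p and miR-3544) or between members, and were not used in the choice. None was called in limma in any of the 6 comparisons. The background of calls against vehicle was 1.53% at day 2, 3.44% at day 4 and 26% at day 6, and 0 of these 6 were called at day 6. With slide as a fixed block 2 were called at day 6 (miR-667-3p and miR-134-5p), and 0 once AAI day 4 array 2 was also left out. Their smallest limma adjusted p values were 0.427, 0.111 and 0.133 at days 2, 4 and 6. Of their 18 unadjusted limma p values, 1 was under 0.05, that of miR-3544 at day 4. Over all 262 miRNAs, 11.1%, 22.1% and 41.2% were under 0.05 at days 2, 4 and 6. The median log2 difference of the 6 was −0.20, 0.08 and −0.02, beside −0.04, −0.07 and −0.11 over all 262.

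**Figure D4:**
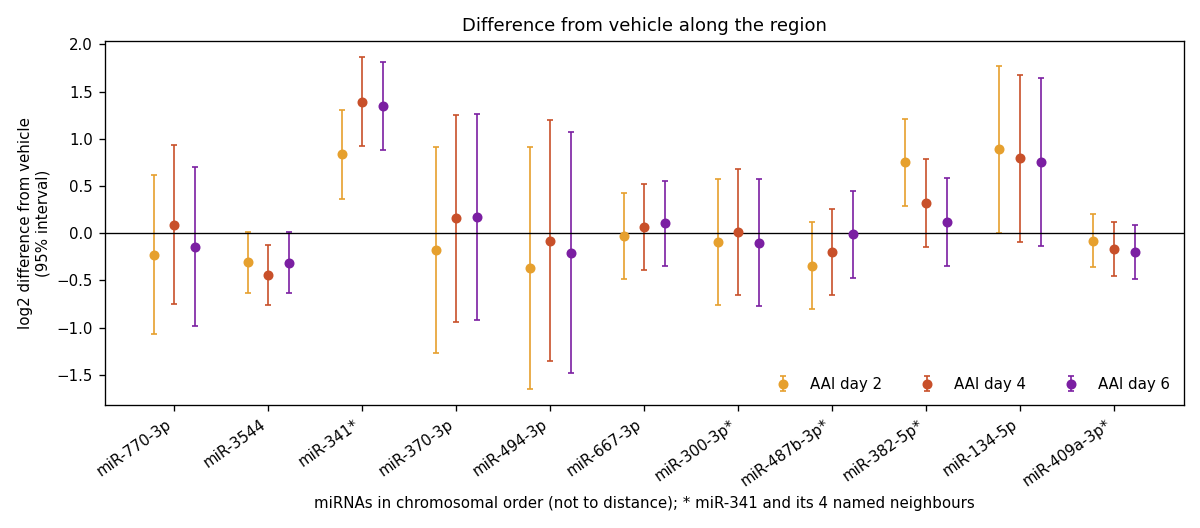
Log2 difference from vehicle at AAI days 2, 4 and 6 for the 11 measured miRNAs of the region in chromosomal order, with 95% intervals from the fit over all 262 miRNAs. MiR-341 stands at 0.83, 1.40 and 1.35, while the miRNAs beside it, miR-3544 and miR-370-3p, stand at −0.31, −0.44 and −0.31 and at −0.17, 0.16 and 0.17.

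MiR-370-3p, whose probe target starts 6.67 kb from that of miR-341, is the nearest tested miRNA. It differed from vehicle by −0.17, 0.16 and 0.17 at days 2, 4 and 6, each ± 0.52 (SE), with limma adjusted p of 0.923, 0.905 and 0.828. MiR-3544, which is transcribed from the opposite strand, lies on the other side. It differed from vehicle by −0.31, −0.44 and −0.31 on the log2 scale, each ± 0.15 (SE), with limma adjusted p of 0.462, 0.111 and 0.133. In it 3 of 5 day 2 kidneys, and 4 of 5 at day 4 and at day 6, lay below the lowest vehicle kidney. Its mean intensity before scaling was 18.23 in vehicle and 18.02, 17.20 and 19.09 at days 2, 4 and 6. The mean 75th percentile was 367 in vehicle and 452, 472 and 480 on those days. Its lower levels on this scale therefore need not be a fall in intensity. Alternatives other than leaving out an array gave differences from vehicle of −0.61 to −0.01, −1.15 to 0.14 and −0.75 to 0.30. MiR-1188-5p and miR-1188-3p lie between miR-341 and miR-370-3p and closest of all to miR-341, but neither passed the detection filter. MiR-1188-3p was detected on 4 vehicle, 3 day 2, 4 day 4 and 4 day 6 arrays, and miR-1188-5p on 1 day 4 and 2 day 6 arrays.

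MiR-134-5p, known in rat hippocampal neurons for restraining dendritic spine size through Limk1, had the highest means against vehicle among the 6. Its log2 level was −4.93, −4.23, −4.55, −3.79 and −4.92 in vehicle and −3.14, −3.57, −3.96, −3.67 and −3.66 at day 2, where 4 of 5 kidneys lay above all vehicle kidneys. At day 4 it was −3.61, −2.08, −4.35, −4.01 and −4.42, and at day 6 −4.00, −4.70, −2.58, −3.08 and −4.32. The differences from vehicle were 0.89, 0.79 and 0.75, each ± 0.42 (SE), with limma adjusted p of 0.427, 0.278 and 0.189. Without AAI day 4 array 2 the day 4 difference was 0.39. MiR-134-5p and miR-382-5p are next to each other in rn4 (probe targets from 134415649 and 134415281 on chromosome 6), and a difference between them was not tested. From day 2 to day 4 miR-382-5p differed by −0.43 and miR-134-5p by −0.10, or by −0.50 without AAI day 4 array 2.

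MiR-770-3p, miR-370-3p and miR-494-3p varied widely between kidneys of one group, and shared their highest arrays in vehicle, day 2 and day 4. MiR-494-3p, reported in injured mouse kidney to act on Atf3, was 1.61, 2.27, 3.23, 3.66 and 2.10 in vehicle and 2.21, 2.05, 1.70, 3.28 and 1.80 at day 2. It was 2.02, 5.34, 1.79, 1.80 and 1.54 at day 4 and 3.52, 2.12, 1.70, 1.86 and 2.65 at day 6. In miR-770-3p and miR-370-3p, as in miR-494-3p, vehicle arrays 3 and 4 and AAI day 2 array 4 were the highest of their groups, and AAI day 4 array 2 was the highest of all 20. At day 6 they parted only in part. Array 1 was the highest of its group in miR-770-3p (−2.52) and miR-494-3p (3.52). In miR-370-3p array 1 was at −2.53, just below array 3 at −2.50, and array 3 was the lowest of its group in miR-494-3p (1.70). The pooled SD within groups was 1.03 for miR-494-3p, 0.87 for miR-370-3p and 0.67 for miR-770-3p, against 0.37 for miR-341 and 0.22 for miR-409a-3p. With levels centred on their own means, the root mean square difference over the 20 arrays was 0.32 between miR-770-3p and miR-370-3p. It was 0.37 between miR-770-3p and miR-494-3p and 0.44 between miR-370-3p and miR-494-3p. Among all tested miRNAs the second of each pair was at rank 9, 16 and 15 from the first. The first was at rank 6, 5 and 7 from the second, so other miRNAs lay closer to each.

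**Figure D5:**
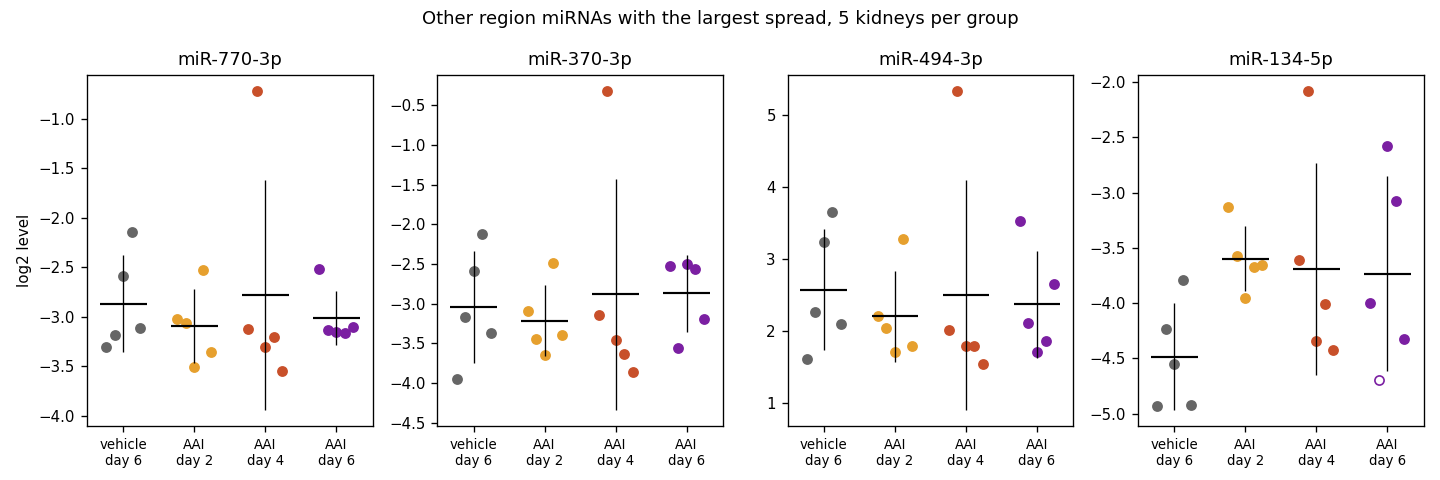
Log2 levels of 4 other region miRNAs on each array by group, each panel with its own axis, with bars at the mean and 1 SD (n = 5) and open points for arrays without detection. AAI day 4 array 2 is highest in all 4 panels, at −0.72, −0.32, 5.34 and −2.08.

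AAI day 4 array 2 set the day 4 means of these miRNAs. Without it the day 4 difference from vehicle went from 0.09 to −0.43 in miR-770-3p, from 0.16 to −0.49 in miR-370-3p and from −0.08 to −0.79 in miR-494-3p. The same array detected 8 of the 10 region miRNAs that were detected somewhere but not tested, against at most 4 on any other array, and it had the most detected miRNAs of all. On miR-341 it was unremarkable at −2.02, within the −2.08 to −1.86 of its group.

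The same measure of likeness, applied to all 261 other tested miRNAs, placed no miRNA of the region close to miR-341. The nearest was miR-382-5p, at a root mean square difference of 0.66 and rank 45, followed by miR-667-3p at rank 58, miR-409a-3p at 106 and miR-487b-3p at 167. MiR-370-3p was at rank 246 and miR-494-3p at 255, with pooled SDs within groups of 0.87 and 1.03. The measure is not scaled to spread, so a widely varying miRNA lies far from miR-341 by it. A nearly flat miRNA can rank nearer without sharing the pattern. The ranks also rest on the miR-341 levels that led to its choice. The median over all 261 was 0.73. The 5 most alike were miR-3562 (0.39), miR-551b-5p (0.47), miR-3573-3p (0.48), miR-465-5p (0.49) and miR-30b-3p (0.50), all outside the region.

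MiR-3562, the most alike, had a mean of −3.02 ± 0.19 (SD, n = 5) in vehicle and −2.57 ± 0.37, −2.34 ± 0.41 and −2.35 ± 0.37 at days 2, 4 and 6. Its day 2 kidneys divided as those of miR-341 did, at −2.85, −2.72 and −2.93 on the arrays of row 2 and −2.15 and −2.19 on those of row 1. MiR-465-5p, detected on 1 vehicle array and all AAI arrays, went from −5.80 ± 0.82 to −4.26 ± 0.50, −4.19 ± 0.31 and −4.18 ± 0.50. Both were among the 9 miRNAs with row 1 of slide 2 wholly above row 2, and the other 3 of the 5 were not. All 5 were picked for likeness to miR-341 over these same arrays, those of day 2 included. A division shared with miR-341 is therefore set in part by the choice and adds no separate evidence. MiR-465-5p and miR-551b-5p passed the detection filter only through AAI groups, so their differences from vehicle are a description without a test. MiR-551b-5p, detected on 2 vehicle arrays and all AAI arrays, was −3.79, −4.03 and −4.05 on the day 2 arrays of row 2 and −5.59 on the vehicle array of that row, where it was not detected, so there it differed within a row.

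The G and C content of other miRNAs is set beside their differences as a description. Of the tested miRNAs with a RefSeq sequence, 14 others, with miR-770-3p and miR-370-3p of the region among them, had at least the 66.7% of miR-341. Their median log2 difference from vehicle was −0.0026 at day 2, 0.15 at day 4 and 0.07 at day 6, beside −0.05, −0.08 and −0.11 over all with a sequence. Of the 14, 7 were above 0 at day 2, 10 at day 4 and 9 at day 6.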

How the data were processed

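Per the labels, RNA of 20 kidneys was labelled with Cy3 and hybridized to 1-colour Agilent miRNA arrays, and the scans were quantified, per the file headers, by Agilent Feature Extraction 10.7.1.1 with build rn4. The deposited spot values are fluorescence intensity, background-subtracted and not scaled between arrays. The deposited detection and outlier flags are of the other kind, 0 or 1. A deposited series table holds log2 values whose making, scale and centring are not stated, and it served as an alternative. The precision is limited by the number of arrays.

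Outlier spots were dropped, spots averaged per probe, probes summed per miRNA, and sums divided by the 75th percentile over the 231 miRNAs detected on all 20 arrays. A floor of 0.00640 was set and log2 taken. The fit of 4 group means used limma 3.58.1 (R 4.3.3, files read with the data.table package, version 1.17.8), with 16 residual and 2.17 prior degrees of freedom, over the 262 miRNAs detected in every kidney of some group. Calls used a Benjamini-Hochberg adjusted p under 0.05. The fit was tested on simulated data. The members and lists were chosen with earlier results of these data known. Region miRNAs were all those within 500 kb of a member by probe coordinates, and the 5 miRNAs most like miR-341 were taken by root mean square difference of centred log2 levels. MiR-341 has no p in any comparison, the neighbours have none against vehicle, and miR-300-3p and miR-382-5p, which passed the detection filter only through day 2, have none against day 2 either.

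Replicate numbers were checked as pairs: same-numbered arrays of different groups correlated in their deviations at −0.62 to 0.66, over 0.1 in 11 of 30 pairs, so they were not treated as paired. Alternatives were other backgrounds, scalings, probe summaries, filters, floors, variance models, blocks by slide or replicate, and leaving out each of the 20 arrays. The 2 blocks that use the position row, taken from the array position in the file headers, were chosen after seeing the data.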

Additional observations from a re-analysis of the deposited data

Results flagged for a closer look

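Among 44 checks of a single array against the other 4 of its group (11 region miRNAs in 4 groups), 4 stood apart by Dixon's criterion at 95%, which chance exceeds in about 1 group in 20. Of these, 3 were AAI day 4 array 2, in miR-770-3p (−0.72 against −3.55 to −3.12 on the other arrays), miR-370-3p (−0.32 against −3.86 to −3.15) and miR-494-3p (5.34 against 1.54 to 2.02). The other was AAI day 6 array 1 in miR-770-3p (−2.52 against −3.16 to −3.10). No array of miR-341 or its 4 neighbours stood apart in this way.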

How the results depend on the processing

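The difference of miR-341 from vehicle stayed above 0 in all alternatives except that at day 6 with slide and position row as a block (−0.41, with 0.083 and 0.043 at days 2 and 4). With normexp it was 0.15, 0.42 and 0.39. Leaving out 1 array gave 0.66 to 1.00, 1.35 to 1.47 and 1.25 to 1.46. The cause of the step with array position was not tested. Without scaling it was 1.13, 1.76 and 1.72 beside a median over all miRNAs of 0.25, 0.29 and 0.26, and with spike-in scaling 1.65 and 1.64 at days 4 and 6 beside 0.19 and 0.18. The neighbours' differences from vehicle had intervals that spanned 0 except for miR-382-5p at day 2. Their sign changed in 1 to 9 of 40 to 42 alternatives. The day 2 difference of miR-382-5p changed sign in 2 of 41, and was −0.08 with normexp. It was 0.60 to 0.86 leaving out 1 array, and −0.53 to 2.92 over the other alternatives. Neither miR-409a-3p nor miR-487b-3p was called between AAI days in any alternative.

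Of the 6 other region miRNAs, calls appeared with slide as a fixed block alone. These were miR-667-3p (1.39, limma adjusted p = 0.0124) and miR-134-5p (2.60, 0.0278) for day 6 against vehicle, miR-667-3p for day 4 against day 2 (0.67, 0.0418), and miR-667-3p (1.09, 0.00879) and miR-370-3p (2.26, 0.0317) for day 6 against day 2, which are 2, 1 and 2 calls. When AAI day 4 array 2 was also left out, 0 remained.

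Replicate number as a block left miR-341 at 0.83, 1.40 and 1.35 (SE 0.23) and gave 2 calls over all miRNAs at day 2 against 4. The numbers showed no pairing, and this block changed no call of a region miRNA.

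The count of called miRNAs over all 262 depended more on the setting. Day 2 against vehicle had 4 calls, 0 with normexp, with either block by slide, within slides, with slide and row, with the fixed block without AAI day 4 array 2, and with detection on all arrays. It had 2 with log2 probe means and the deposited series table, 7 with row, 8 with spike-ins or only the 2 groups compared, and 9 without scaling (2 to 5 leaving out an array, 2 without AAI day 2 array 4). Day 4 against vehicle had 9 calls, 0 with normexp, within slides, with slide and row, and with the fixed block without AAI day 4 array 2. It had 3 with slide as a random block, 4 with the software's gene signal, 5 with detection on all arrays, 14 without scaling, 19 with slide as a fixed block and 24 with row (7 to 14 leaving out an array). Day 6 against vehicle had 68 calls (19 higher, 49 lower), 0 with slide and row and with the fixed block without AAI day 4 array 2. It had 23 with the software's gene signal, 24 with normexp, 27 with median scaling (16 higher, 11 lower), 29 with spike-ins (27 higher, 2 lower) and 34 without scaling (33 higher, 1 lower). Day 4 against day 2 had 0 calls (20 at an unadjusted p under 0.05), and 34 with slide as a fixed block. Day 6 against day 2 had 29, 0 with slide and row and with the fixed block without AAI day 4 array 2, 2 with spike-ins, 3 without scaling or with the software's gene signal, 5 with median scaling, 6 with normexp, 14 with row, 16 with quantile normalization or the percentile over all miRNAs, 18 with outlier spots kept or the deposited series table, 19 with only the 2 groups compared and 95 with slide as a fixed block (8 to 49 leaving out an array, 8 without AAI day 6 array 5 and 49 without AAI day 4 array 2). Day 6 against day 4 had 2, 0 within slides, 1 with normexp, without scaling, with either slide block, with the fixed block without AAI day 4 array 2 and with only the 2 groups compared, 3 with slide and row, and 4 with row (1 to 8 leaving out an array). The within-slide setting gave no value for day 6 against vehicle or day 2.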
